A study of Mus musculus with 16 samples.

Results

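The 10 genes described here are the AP-1 and immediate early genes Jun, Junb, Jund, Fos, Fosb, Fosl2, Egr1, Dusp1, Ier2 and Atf3. They were picked by symbol, and all 10 had a row among the 23410 gene symbols counted. RNA was sequenced from G1E-ER4 cells, a mouse erythroid progenitor line without a functional Gata1 gene that carries GATA1 fused to the ligand-binding domain of the estrogen receptor. Beta-estradiol was given at 0 (labelled as the control), 12.5, 25, 50, 75, 100, 150 or 200 nM, with 2 libraries at each of the 8 doses and 16 in all. All groups, the 0 nM cells included, came from the same line and grew in the same medium, IMDM with serum, murine stem cell factor and erythropoietin. The series was made to move GATA1 into the nucleus by steps. With no fusion-free cells among the samples, an action of beta-estradiol and one of GATA1 cannot be told apart. The labels number the libraries of a dose but do not say that they came from separate cultures, so the p-values measure the spread between these libraries, which may be technical. How long the cells were exposed was not found in the labels.

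AP-1 is a pair of basic leucine zipper proteins. JUN proteins pair with each other or with FOS and ATF proteins, while FOS proteins need a JUN partner, and the pairs bind the sequence TGACTCA or the related TGACGTCA. Immediate early genes are transcribed within minutes of a growth factor, cytokine or stress signal, without new protein synthesis, through ERK, JNK and p38 kinases and factors such as SRF, ELK1 and CREB, and their mRNAs are short-lived. In blood cells stem cell factor and erythropoietin both feed the ERK pathway. EGR1 is a zinc finger factor of the same class, IER2 is a nuclear protein induced by growth factors, and DUSP1 is a phosphatase that switches the JNK, p38 and ERK kinases off again.

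The promoters of Jun, Junb and Dusp1 are printed because these genes rose with dose on ample counts, and each run holds the 250 bases before the RefSeq transcription start (build GRCm38.p6, minus strand of the chromosome, 5′ to 3′ along the gene). They lie at chr4:95052223-95052472, chr8:84978749-84978998 and chr17:26508473-26508722. Capitals mark the matches found to any motif searched, on both strands.
Jun: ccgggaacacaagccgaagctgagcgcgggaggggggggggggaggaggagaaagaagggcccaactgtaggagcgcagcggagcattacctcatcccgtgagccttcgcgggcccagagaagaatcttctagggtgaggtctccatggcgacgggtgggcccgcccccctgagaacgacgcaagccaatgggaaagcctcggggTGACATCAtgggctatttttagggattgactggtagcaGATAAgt
Junb: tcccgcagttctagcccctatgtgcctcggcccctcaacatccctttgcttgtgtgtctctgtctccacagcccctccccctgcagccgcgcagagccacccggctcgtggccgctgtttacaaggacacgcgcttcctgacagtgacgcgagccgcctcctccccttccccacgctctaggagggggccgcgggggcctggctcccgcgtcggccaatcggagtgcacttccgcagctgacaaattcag
Dusp1: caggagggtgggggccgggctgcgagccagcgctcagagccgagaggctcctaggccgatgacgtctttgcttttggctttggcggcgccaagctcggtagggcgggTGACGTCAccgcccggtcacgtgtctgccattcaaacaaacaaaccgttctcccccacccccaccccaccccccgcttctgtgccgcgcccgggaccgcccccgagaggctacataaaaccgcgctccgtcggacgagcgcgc

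The Jun window held TGACATCA, an AP-1 type site, at -45 to -38 from the start, a match found in 2.93% of the 32851 windows in the table. It also held GATAA, the core of the GATA site, at -7 to -3, as did 22.6% of all windows. The Dusp1 window held TGACGTCA, the cyclic AMP response element, at -143 to -136, as in 1.55% of windows. The Junb window held none of the motifs searched. The other motifs were TGACTCA (in 4.46% of windows), the EGR1 site GCGGGGGCG (2.57%), TATAAA (12.4%), the ETS core CCGGAA (12%) and the CArG box of SRF (1.47%). None of the matches in the printed windows overlapped another. These are matches of letters and were not tested as binding sites. RefSeq windows were at hand for 8 of the 10 genes, not for Egr1 and Ier2. Of the windows not printed, that of Atf3 held GATAA too, at -194 to -190. That of Fos held TATAAA, those of Fosb and Fosl2 the EGR1 site, and that of Jund none of the motifs. So Junb, Jund, Fos and Dusp1, which rose, had no GATAA. A link between these motifs and the changes with dose was not tested. In GENCODE M21 the main transcripts of Jun, Junb, Jund and Ier2 have 1 exon each, that of Egr1 has 2, and those of Fos, Fosb, Fosl2, Dusp1 and Atf3 have 4.

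Library totals ran from 9393156 to 15802510 counts, and 10080 genes had enough counts to be tested. Reads of the ribosomal precursor Rn45s took 15.0% ± 0.5 of counts at 200 nM and 9.57% ± 0.06 at 0 nM (SD, n = 2). Expression is given as TMM-scaled CPM, the reads of a gene relative to the scaled library total, and the scaling sets the typical gene at no change. TMM factors ran from 0.843 to 1.10, and with library size alone the log2 change of the median gene at 200 nM was -0.36. The Gata1 row had 1643 ± 46 CPM at 200 nM, against 711 ± 62 CPM at 0 nM (SD, n = 2). Counts by gene symbol cannot separate reads of the fusion from reads of the cells' own Gata1 locus. The level is no check of the labels because the hormone works on the fusion protein. The erythroid identity of the line was plain. Of 9 erythroid markers listed 8 had a row, the alpha-globin marker having none, and all 8 were counted at every dose. Their summed level was 19109 to 19240 CPM at 200 nM against 1929 to 1940 CPM at 0 nM. The 9 megakaryocyte markers summed to 440 to 454 CPM at 200 nM against 17.97 to 18.8 CPM at 0 nM. At 200 nM Itgb3, an integrin gene, gave 404 CPM of that sum. Of the 5 megakaryocyte markers tested 4 were called higher at 200 nM, against 40.5% of all genes (edgeR quasi-likelihood, adjusted p under 0.05). Besides Itgb3, Gp9 had 25.0 CPM at 200 nM against 1.40 CPM at 0 nM. Pf4 had 6.68 CPM at 200 nM against 0.373 CPM at 0 nM, and Itga2b 2.94 against 1.12 CPM. Gp1ba was not called. Ppbp, Vwf and Gp6 were at 0 counts in the 0 and 200 nM libraries. Summed levels were 0.424 to 0.737 CPM at 200 nM and 1.26 to 1.90 CPM at 0 nM for 7 mast cell and basophil markers, with Mcpt8, Fcer1a, Tpsb2 and Prss34 at 0 counts at both doses. They were 1.95 to 2.58 CPM at 200 nM and 0.429 to 1.01 CPM at 0 nM for 9 macrophage and granulocyte markers, with Mpo, Lyz2, S100a8 and S100a9 at 0 counts at both doses. Each of these lists had 1 tested gene. The mast cell gene Cpa3 was called lower, at 0.488 CPM at 200 nM against 1.21 CPM at 0 nM. The macrophage gene Cd68 was called higher, at 1.68 CPM at 200 nM against 0.656 CPM at 0 nM. The 7 fibroblast markers had 0 counts at both doses. The part of the megakaryocyte genes in the results below was not tested, and fewer cells of a type cannot be told apart from less RNA per cell.

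At 200 nM Jun, Dusp1, Jund, Fos, Junb and Egr1 were higher than at 0 nM and Ier2 was lower, while Fosb, Fosl2 and Atf3 had too few counts to test. So 6 of the 7 genes tested rose, where 40.5% of all 10080 genes were called higher, and 1 fell, where 39.5% were called lower (edgeR quasi-likelihood, adjusted p under 0.05 after Benjamini-Hochberg). Jund and Fos passed the filter on low counts only through the doses at which they were high, so these counts describe 7 of the 10 genes and support nothing on their own. With library size alone 28.0% of all genes were called higher and 53.5% lower at 200 nM, and the same 7 calls stood. The response was uneven, from 35.2-fold for Jun to 1.61-fold for Egr1. Their log2 fold changes against 0 nM are followed over the doses in the plot of changes.

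**Figure D1:**
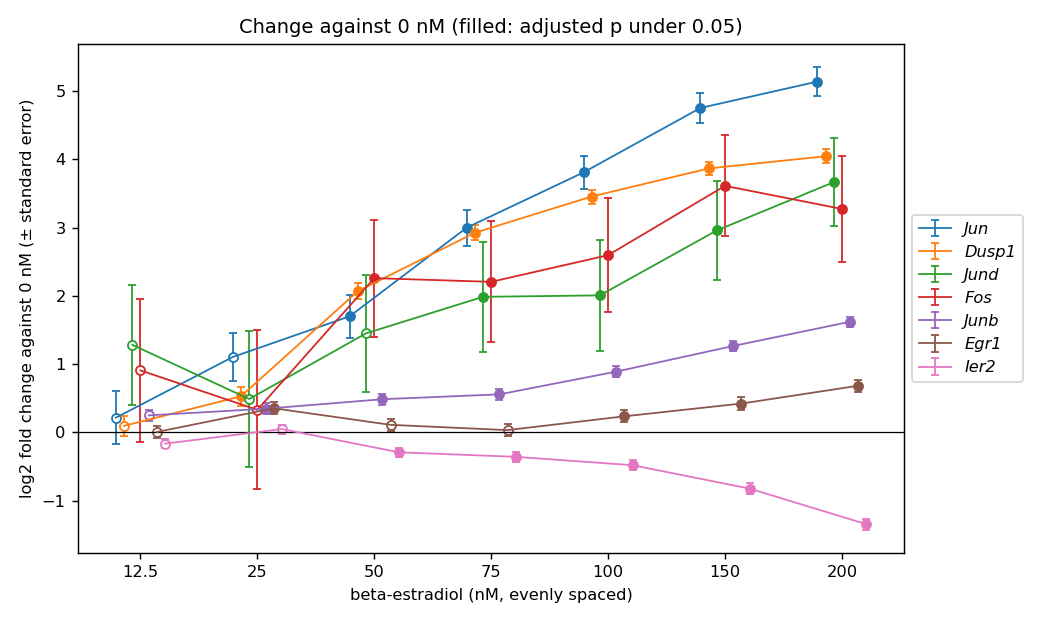
Log2 fold change against 0 nM (vertical axis, ± standard error) at each dose of beta-estradiol (horizontal axis, nM, doses evenly spaced) for the 7 tested genes, with filled points where the adjusted p was under 0.05 and points shifted sideways to keep them apart. Jun reached 5.14 and Dusp1 4.05 at 200 nM, Egr1 stayed under 1 at every dose, and Ier2 reached -1.34.

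Among the JUN genes, which encode the partner that every AP-1 pair needs, Jun changed most. Jun (chromosome 4, 95049034 to 95052222, minus strand, GRCm38) had 0.736 and 0.820 CPM at 0 nM, 1.12 and 0.701 CPM at 12.5 nM, and 1.44 and 1.96 CPM at 25 nM. It had 2.67 and 2.43 CPM at 50 nM, 6.17 and 6.38 CPM at 75 nM, and 10.5 and 11.6 CPM at 100 nM. It had 20.7 and 21.8 CPM at 150 nM and 29.8 and 25.7 CPM at 200 nM. The libraries of each dose from 25 nM upward all lay above those of every lower dose, while those of 0 and 12.5 nM overlapped. In raw counts this was 323 and 303 reads at 200 nM against 12 and 13 at 0 nM. The rate of reads at 200 nM was 35.6 times that at 0 nM (95% exact counting interval 23.9 to 55.4). The log2 fold change at 200 nM was 5.14 ± 0.21 (standard error, adjusted p = 1.33e-26, edgeR quasi-likelihood) and stayed between 5.03 and 5.24 when any 1 library was left out. It ranked 100th from the top among 10080 genes. At 25 nM it was 1.10 ± 0.34 and missed the threshold (adjusted p = 0.0574, edgeR quasi-likelihood), and the rise was first called at 50 nM, at 1.70 ± 0.31 (adjusted p = 2.24e-05). Each dose from 75 nM upward was called higher than the dose below it, and the steps among 0, 12.5, 25 and 50 nM were not. The call from 150 to 200 nM (0.39 ± 0.13, adjusted p = 0.0167, edgeR quasi-likelihood) was lost without 150 nM replicate 1 (0.126), without 200 nM replicate 1 (0.195) and with library size alone (0.0879). In the GENCODE annotation an antisense gene, Junos, covers 689 bases of Jun; without strand its reads could not be separated, and it had no row of its own.

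Junb, the JUN gene with the most reads per length at every dose, rose less and from a high base. Junb (chromosome 8, 84974484 to 84978718, minus strand) had 25.1 and 23.5 CPM at 0 nM, 28.4 and 29.4 CPM at 12.5 nM, and 31.7 and 30.1 CPM at 25 nM. It had 34.5 and 33.6 CPM at 50 nM, 35.5 and 36.0 CPM at 75 nM, and 43.1 and 47.1 CPM at 100 nM. It had 58.8 and 58.1 CPM at 150 nM and 76.8 and 72.8 CPM at 200 nM. No libraries of different doses overlapped, but none of the 4 steps between neighbouring doses up to 75 nM passed the test. The log2 fold change was 1.62 ± 0.08 at 200 nM, a 3.08-fold rise (adjusted p = 3.14e-24, edgeR quasi-likelihood), and 0.35 ± 0.08 at 25 nM (adjusted p = 0.00619). The call at 25 nM was lost without 0 nM replicate 2 (adjusted p = 0.147) and without 25 nM replicate 1 (adjusted p = 0.104). GENCODE lets Junb overlap 351 bases of Prdx2, an abundant peroxiredoxin gene on the other strand that stood at 5032 ± 49 CPM at 200 nM and 834 ± 11 CPM at 0 nM (SD, n = 2). The RefSeq models of these genes do not overlap, no source names the annotation used for counting, and the part of Prdx2 reads in the Junb values was not tested.

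Jund, which many cell types express steadily, was near the limit of detection here. Jund (chromosome 8, 70698949 to 70700616, plus strand) had 1 and 4 reads in the 0 nM libraries, 3 and 10 in those of 12.5 nM, 4 and 3 in those of 25 nM and 12 and 2 in those of 50 nM. The 75 nM libraries had 6 and 12 reads, the 100 nM libraries 8 and 10, the 150 nM libraries 11 and 16 and the 200 nM libraries 24 and 23. The 200 nM libraries lay above those of all other doses, and below 200 nM the doses overlapped widely. The rate of reads was 13.3 times that of 0 nM at 200 nM, with a 95% exact counting interval from 5.33 to 43.0, and the log2 fold change was 3.67 ± 0.65 (adjusted p = 1.75e-06, edgeR quasi-likelihood). The calls at 75 and 100 nM did not hold with DESeq2 (adjusted p = 0.0719 and 0.0559) or without 0 nM replicate 1 (adjusted p = 0.239 and 0.204, edgeR). They were lost too at 75 nM without 75 nM replicate 2 (0.296) and at 100 nM without 100 nM replicate 2 (0.119). An antisense gene without a row, Gm11175, covers 919 of the 1668 bases of the GENCODE Jund model. The transcript was 67.1% G and C, the highest share among the 10 genes, and the part of either in its low count was not tested.

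The FOS genes, which encode partners that bind DNA only with a JUN protein, had few reads at any dose. Fos (chromosome 12, 85473890 to 85477273) had 1 and 3 reads in the 0 nM libraries, 8 and 0 in those of 12.5 nM, 1 and 4 in those of 25 nM and 12 and 8 in those of 50 nM. The 75 nM libraries had 13 and 4 reads, the 100 nM libraries 13 and 9, the 150 nM libraries 23 and 12 and the 200 nM libraries 11 and 18. The 200 nM libraries lay above both 0 nM libraries, and the 150 nM libraries overlapped those of 200 nM. The rate at 200 nM was 10.3 times that at 0 nM (95% exact counting interval 3.62 to 40.3), with a log2 fold change of 3.27 ± 0.78 (adjusted p = 0.000205, edgeR quasi-likelihood). No step between neighbouring doses passed the test. DESeq2 did not call Fos at 50 or 75 nM (adjusted p = 0.0845 and 0.0635). The call at 50 nM (adjusted p = 0.0376) was lost without 0 nM replicate 1 (0.231), without 0 nM replicate 2 (0.0639) and without 50 nM replicate 1 (0.186). At 75 nM (0.0318) it was lost without 0 nM replicate 1 (0.194) or 75 nM replicate 1 (0.465), and at 100 nM (0.00602) without 0 nM replicate 1 (0.0703) or 100 nM replicate 1 (0.0568), all by edgeR.

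**Figure D2:**
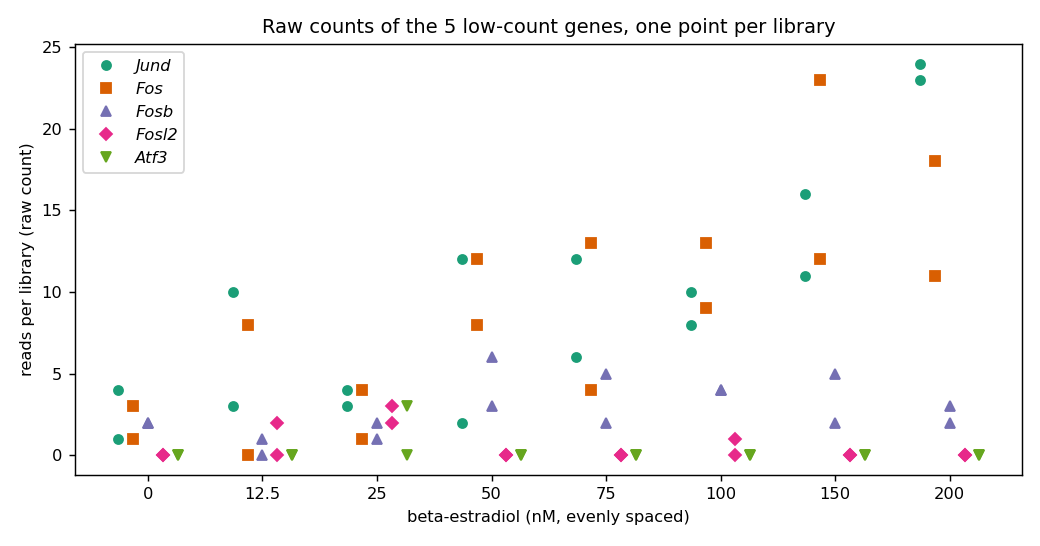
Raw reads per library (vertical axis) at each dose of beta-estradiol (horizontal axis, nM, evenly spaced) for the 5 genes with few reads, 1 point per library, shifted sideways by gene. Jund reached 24 reads and Fos 23, while Fosb never exceeded 6 and Fosl2 and Atf3 never exceeded 3.

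Fosb (chromosome 7, 19302696 to 19310051) had 0 to 6 reads per library and 44 in all. It had 3 and 2 reads at 200 nM against 2 and 2 at 0 nM, so the doses overlapped. Without the filter on low counts it could be tested, and the F test over all doses did not call it (adjusted p = 0.514, edgeR quasi-likelihood). Fosl2, whose protein FRA2 is another FOS partner (chromosome 5, 32135801 to 32157842), had 8 reads in the whole series, of which 3 and 2 came from the 25 nM libraries, 3 from 12.5 nM replicate 2 and 100 nM replicate 2 together, and none from the other 12 libraries. Atf3, a stress-induced partner of JUN proteins (chromosome 1, 191170296 to 191218039), had 3 reads in 25 nM replicate 1 and 0 in the other 15 libraries. A count of 0 allows up to 3 reads, which is 0.175 to 0.351 CPM depending on the library, for counting error only. Their adjusted p in the unfiltered F test was 0.535 and 0.871 (edgeR quasi-likelihood).

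Set per length, the AP-1 genes Jun, Junb, Jund, Fos, Fosb, Fosl2 and Atf3 summed to 52.0 ± 2.5 CPM per kilobase of transcript at 200 nM and 13.9 ± 0.5 at 0 nM (SD, n = 2). Junb made up 79.6% ± 0.7 of that sum at 200 nM and 96.9% ± 1.1 at 0 nM. The share of Jun was 1.76% ± 0.20 at 0 nM, 1.72% ± 0.59 at 12.5 nM, 2.98% ± 0.73 at 25 nM and 3.94% ± 0.10 at 50 nM. It was 8.75% ± 0.14 at 75 nM, 11.8% ± 0.1 at 100 nM, 16.4% ± 0.4 at 150 nM and 16.7% ± 1.0 at 200 nM, so the last step was within the spread of the libraries. Jund held 2.40% ± 0.10 at 200 nM and 0.689% ± 0.609 at 0 nM, and Fos 1.17% ± 0.39 at 200 nM and 0.435% ± 0.326 at 0 nM. These shares were not tested, and they rest on GENCODE transcript lengths.

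Dusp1, the phosphatase that ends MAP kinase signalling, gave the smallest p-value of the 7 genes tested. Dusp1 (chromosome 17, 26505590 to 26562128, minus strand) had 5.09 and 6.87 CPM at 0 nM, 6.77 and 6.02 CPM at 12.5 nM, and 8.79 and 8.43 CPM at 25 nM. It had 25.8 and 24.4 CPM at 50 nM, 46.6 and 44.1 CPM at 75 nM, and 66.0 and 65.2 CPM at 100 nM. It had 89.8 and 84.1 CPM at 150 nM and 103 and 94.7 CPM at 200 nM. Above 12.5 nM no libraries of different doses overlapped. The log2 fold change at 200 nM was 4.05 ± 0.10, a 16.5-fold rise (adjusted p = 8.18e-36, edgeR quasi-likelihood), and at 50 nM it already stood at 2.07 ± 0.12 (adjusted p = 4.02e-20). The step from 25 to 50 nM, at 1.54 ± 0.11, was the largest between neighbouring doses. Each later step was called and smaller than the one before it, down to 0.18 ± 0.07 from 150 to 200 nM (adjusted p = 0.0423). The call of that last step was lost under 7 of 21 alternatives, among them without either 150 nM library (0.0529 and 0.240), without 200 nM replicate 1 (0.320) and with library size alone (0.465), all by edgeR, while the 4 steps from 25 to 150 nM kept theirs under all 21. The call at 25 nM (0.53 ± 0.14, adjusted p = 0.0181) was lost without 0 nM replicate 1 (0.397), without 25 nM replicate 1 (0.134) and without 25 nM replicate 2 (0.0712), and with 25 and 0 nM alone in the fit (0.0884), all by edgeR. In GENCODE, whose span of Dusp1 is given above, 640 bases of Dusp1 overlap Ergic1 on the other strand. Ergic1 stood at 26.0 ± 0.5 CPM at 200 nM and 76.7 ± 5.0 CPM at 0 nM (SD, n = 2). The RefSeq model of Dusp1 is shorter, from 26505591 to 26508472, and does not overlap that of Ergic1, from 26560762 to 26656934. The part of Ergic1 reads in the Dusp1 values was not tested.

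**Figure D3:**
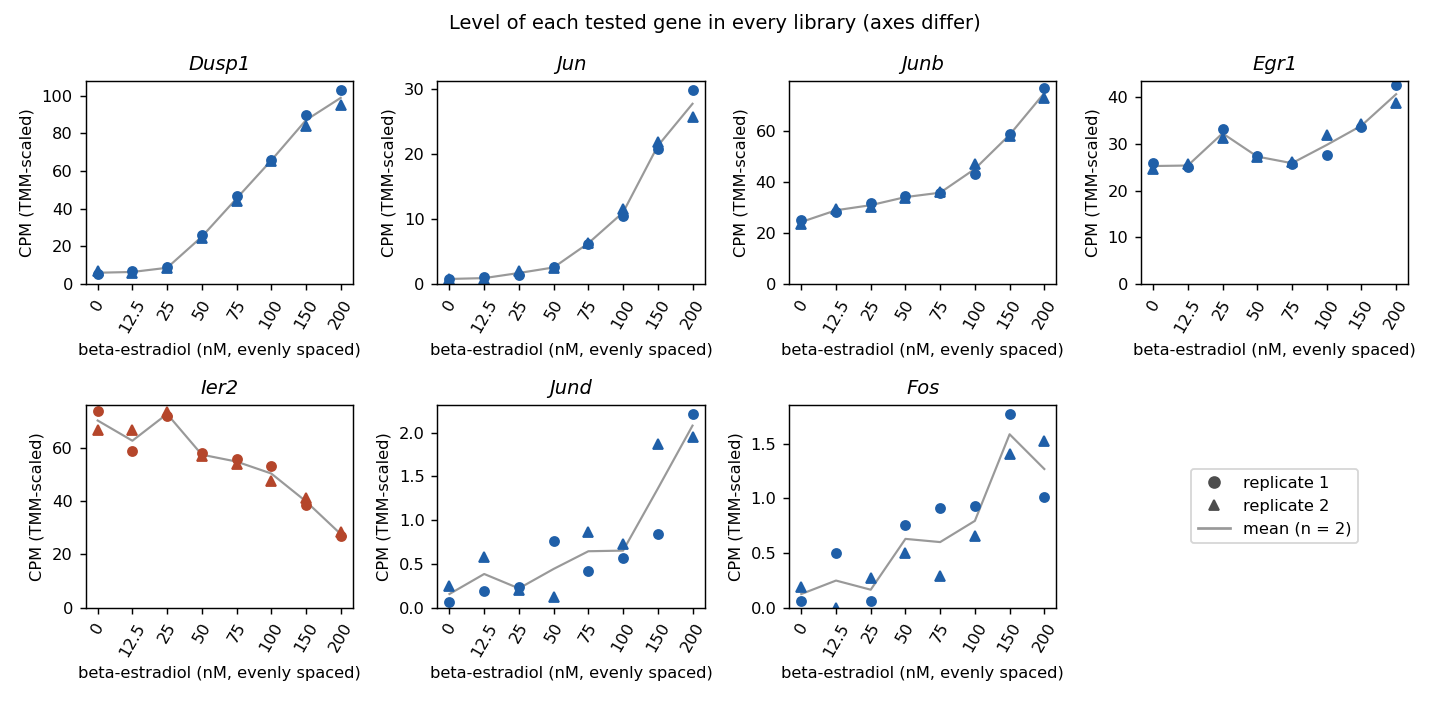
CPM after TMM scaling (vertical axes, which differ between panels and start at 0) in every library at each dose of beta-estradiol (horizontal axes, nM, evenly spaced) for the 7 tested genes, with a line through the mean of the 2 libraries. Dusp1 ran up to 103 CPM and Jun to 29.8 CPM, Egr1 had 33.2 and 31.3 CPM at 25 nM and 42.6 and 38.7 CPM at 200 nM, and Ier2 fell to 26.8 and 28.4 CPM at 200 nM.

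Ier2 moved against the others. Ier2 (chromosome 8, 84661331 to 84662852, minus strand) had 73.7 and 66.6 CPM at 0 nM, 58.6 and 66.5 CPM at 12.5 nM, and 71.8 and 73.4 CPM at 25 nM. It had 57.8 and 56.9 CPM at 50 nM, 55.8 and 53.7 CPM at 75 nM, and 53.2 and 47.4 CPM at 100 nM. It had 38.5 and 41.2 CPM at 150 nM and 26.8 and 28.4 CPM at 200 nM. From 25 nM upward no libraries of different doses overlapped. The log2 fold change at 200 nM was -1.34 ± 0.08 (adjusted p = 2.06e-20, edgeR quasi-likelihood), a fitted ratio of 0.394 to the 0 nM level. The fall was first called at 50 nM, at -0.29 ± 0.07 (adjusted p = 0.000682), a call lost without 0 nM replicate 1 (0.0518). The largest step was the last, from 150 to 200 nM, at -0.52 ± 0.09 (adjusted p = 5.11e-06). Steps from 50 to 75 and from 75 to 100 nM did not pass.

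Egr1, whose protein often rises beside FOS after growth factor signals, changed least. Egr1 (chromosome 18, 34859823 to 34864984, plus strand) had 25.9 and 24.7 CPM at 0 nM, 25.0 and 25.7 CPM at 12.5 nM, and 33.2 and 31.3 CPM at 25 nM. It had 27.5 and 27.1 CPM at 50 nM, 25.7 and 26.1 CPM at 75 nM, and 27.7 and 31.9 CPM at 100 nM. It had 33.6 and 34.2 CPM at 150 nM and 42.6 and 38.7 CPM at 200 nM. The 25 nM libraries stood above those of 0, 12.5, 50 and 75 nM and below both of 200 nM. Egr1 was called higher at 25 than at 12.5 nM (0.35 ± 0.09, adjusted p = 0.0268) and lower at 50 than at 25 nM (-0.24 ± 0.09, adjusted p = 0.0319). Both calls were lost without any 1 library of the doses compared, with adjusted p from 0.0769 to 0.291 for the first and from 0.0505 to 0.214 for the second (edgeR quasi-likelihood), and the first with library size alone too (0.0723). Against 0 nM it was higher at 25 nM (0.35 ± 0.09, adjusted p = 0.00927), not called at 50 and 75 nM (adjusted p = 0.361 and 0.773), and higher at 200 nM by 0.68 ± 0.09 (adjusted p = 1.95e-09, all edgeR quasi-likelihood). The call at 25 nM was lost without 0 nM replicate 2 (0.149) or 25 nM replicate 1 (0.137). At 100 nM (0.0191) it was lost without 0 nM replicate 2 (0.121) or 100 nM replicate 2 (0.309) and with DESeq2 (0.0702). With library size alone the change at 75 nM was -0.09 in place of 0.03, the calls at 100 and 150 nM and the trend were lost (adjusted p = 0.656, 0.132 and 0.221), and the call at 200 nM held at 0.30 (0.00203).

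Per length the order of the genes also differed between the ends of the dose range. At 200 nM the level was 49.6 ± 2.9 CPM per kilobase for Dusp1, 41.4 ± 1.6 for Junb, 18.1 ± 0.7 for Ier2, 9.07 ± 0.61 for Egr1 and 8.69 ± 0.91 for Jun (SD, n = 2), with Egr1 and Jun closer than their spread. At 0 nM it was 46.1 ± 3.3 for Ier2, 13.4 ± 0.7 for Junb, 5.64 ± 0.19 for Egr1, 3.01 ± 0.63 for Dusp1 and 0.244 ± 0.019 for Jun. Ier2 headed the 0 nM list and Dusp1 the 200 nM list.

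Comparisons at the lower doses showed where along the range each gene was first called, which depends on its reads as well as on its change. At 25 nM Jun, at 1.10 ± 0.34, was not called, while Junb, at 0.35 ± 0.08, was. All dose contrasts share the 0 nM libraries. At 12.5 nM 0 of the 7 tested genes were called by edgeR or by DESeq2, where edgeR called 0.278% of all genes higher and 0.228% lower, and 2 genes, Junb and Ier2, had an unadjusted p under 0.05. At 25 nM 3 genes were called, Junb, Egr1 and Dusp1, all of them higher, where 4.02% of all genes were called in either direction. That count went to 0 without 25 nM replicate 1 and to 1 without 0 nM replicate 2. At 50 nM Jun, Junb, Fos and Dusp1 made 4 higher against 18.8% of all genes, and Ier2 made 1 lower against 14.7%, a count that went to 0 without 0 nM replicate 1. At 75 nM 5 were higher against 29.0%, a count of 3 without 0 nM replicate 1 and with DESeq2, and 1 was lower against 26.9%. At 100 nM 6 were higher against 34.1% (4 without 0 nM replicate 1, without 100 nM replicate 2 and with DESeq2), and at 150 nM 6 against 37.7%. Ier2 alone was lower at both doses, against 32.5% and 36.6% of all genes. The 7 genes all passed the F test over the 8 doses, as did 86.3% of all genes. The counts include Fos from 50 nM and Jund from 75 nM upward, which passed the filter only through the doses at which they were high. The count of 4 higher at 50 nM was not stable. Fos lost its call there with DESeq2 (adjusted p = 0.0845) and without some single libraries, as given above. These counts too support nothing on their own.

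Between neighbouring doses 1 gene, Egr1, was higher at 25 than at 12.5 nM, against 0.893% of all genes (0.198% were lower), a count of 0 without 12.5 nM replicate 1 or either 25 nM library. At 50 against 25 nM Dusp1 was higher (14.1% of all genes were) and Egr1 and Ier2 were lower (12.1%), and 1 was lower without any 1 library of those 2 doses. At 75 against 50 nM Jun and Dusp1 were higher, against 16.6% of all genes, and none was lower, against 15.8%. At 100 against 75 nM Jun, Junb and Dusp1 were higher, against 14.7%, with none lower, against 12.8%, and at 150 against 100 nM the same genes were, against 20.6%, with Ier2 lower, against 20.2%. At 200 against 150 nM Jun, Junb, Egr1 and Dusp1 were higher, against 19.4%, and Ier2 lower, against 19.9%. The count of 4 higher at this last step went to 1, Junb, without 150 nM replicate 1, without 200 nM replicate 1 and with library size alone, so that Jun, Egr1 and Dusp1 lost their calls there. In the slope on log2 dose 6 genes were higher, against 39.7% of all genes, and 1 lower, against 37.8%. The same limit holds for this count, since Jund and Fos are among the 6. None of the 7 was higher, or lower, at an intermediate dose than at both 0 and 200 nM by edgeR, with 0 at an unadjusted p under 0.05 as well. Of all genes this held for 0.119% at 12.5 nM, 0.427% at 25 nM, 2.25% at 50 nM, 3.09% at 75 nM, 2.58% at 100 nM and 0.794% at 150 nM.

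The genes reached the middle of their log2 change between 0 and 200 nM at different doses. Half-maximal here means halfway to the 200 nM level, which need not be a plateau. From 150 to 200 nM Junb still changed by 0.36 ± 0.07 and Ier2 by -0.52 ± 0.09. The half-maximal dose was 49.3 nM for Dusp1, with 46.4 to 53.8 nM over the 256 series that take 1 library at each dose. It was 68.1 nM for Jun (65.4 to 70.4), 94.0 nM for Junb (87.8 to 104) and 129 nM for Ier2 (109 to 145), and these ranges did not overlap. For Fos it was 46.5 nM (25.6 to 97.5) and for Jund 100 nM (34.8 to 146), which overlap most of the others. Of the 1986 genes called and at least 2-fold higher at 200 nM, 19.7% of those tested, the middle value was 84.9 nM, with quartiles of 67.0 and 102 nM, so Dusp1 lay below the lower quartile. Ier2 lay above the upper quartile of 122 nM of the 1754 genes at least 2-fold lower, 17.4% of those tested, whose middle value was 106 nM. These doses are descriptions with no test, and they hold for the log2 scale alone. At 75 nM, past its log2 middle, Jun had a mean of 6.27 CPM, against 27.7 CPM at 200 nM and 0.778 CPM at 0 nM. The order of the genes by the middle of their change in CPM was not worked out.

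**Figure D4:**
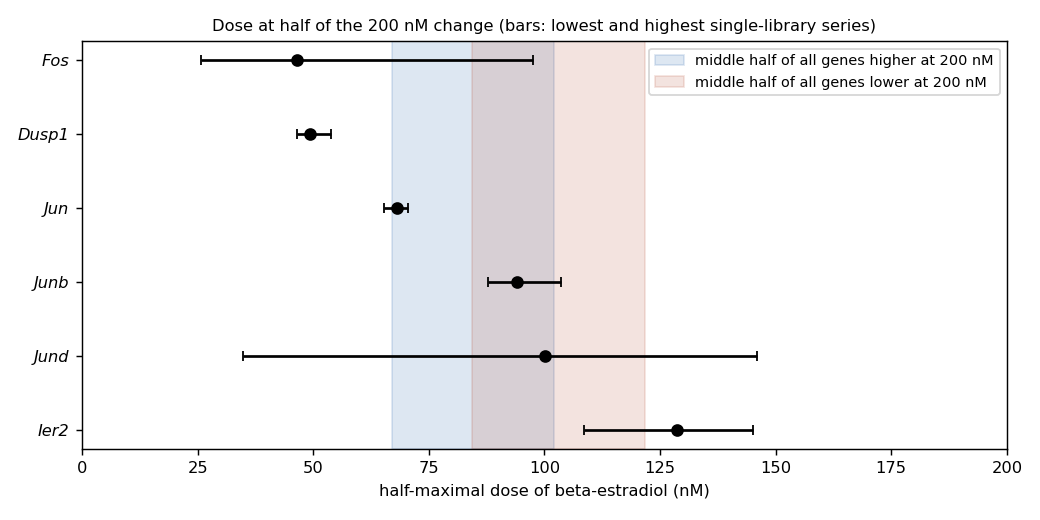
Half-maximal dose of beta-estradiol on the log2 scale (horizontal axis, nM) for the 6 genes that changed at least 2-fold at 200 nM. Bars run to the lowest and highest of the 256 series of single libraries. Shading lies between the quartiles of all genes at least 2-fold higher (blue) or lower (red) at 200 nM. Dusp1 lay at 49.3 nM and Ier2 at 129 nM, on either side of both shaded ranges, while the bars of Fos and Jund spanned much of them.

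Across the 16 libraries the log2 CPM of Jun went with that of Dusp1 (Pearson r = 0.97) and of Junb (0.95), and Ier2 ran against Junb (-0.95) and Jun (-0.89). Egr1 followed Dusp1 less closely (0.61). These values are descriptions, since the points share the doses, the libraries and their scaling. The genes nearest to each in log2 change over the 7 doses were found among 8152 other genes. Nearest to Dusp1 were Abcb10, a mitochondrial transporter needed for heme synthesis, with a root mean square difference of 0.13, the RNA-binding gene Cpeb4 (0.14) and Micall2 (0.20). Nearest to Jun were Btn1a1 (0.21), Fam132b, which encodes the iron hormone erythroferrone (0.27), and the acetylcholinesterase gene Ache (0.28). Nearest to Junb were Fam212a (0.08), the stress sensor gene Ern1 (0.08) and Rab11fip1 (0.09). Nearest to Ier2 were Camk2g (0.08), the kinase gene Akt1 (0.08) and Ippk (0.09), and among those nearest to Egr1 were Ogfod2 (0.09) and the sphingosine kinase gene Sphk2 (0.10).

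Other genes of the pathway were called both ways at 200 nM, as were all genes, with 40.5% higher and 39.5% lower, or 28.0% higher and 53.5% lower with library size alone. Nothing particular to any of these lists was tested. Of 12 other AP-1 family and partner genes 5 could be tested, and 2 were higher and 2 lower, with a median log2 fold change of 0.17 beside 0.02 over all genes. With library size alone the median of the list was -0.21, beside -0.36 over all genes. The small MAF genes Mafk and Mafg, whose proteins pair with NFE2 in erythroid cells, rose, Mafk to 254 ± 4 CPM at 200 nM against 56.8 ± 4.0 CPM at 0 nM and Mafg to 33.4 ± 1.8 CPM at 200 nM against 6.24 ± 0.71 CPM at 0 nM. Atf4 and Atf2 fell by 0.24 ± 0.05 and 0.15 ± 0.06 on the log2 scale. Fosl1, Batf, Batf2, Batf3, Jdp2, Maf and Maff had too few counts to test, and Batf, Jdp2 and Maf had none.

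Of 34 other immediate early genes 20 could be tested, with 9 higher, 6 lower and a median of 0.30, against 40.5% of all genes higher and 39.5% lower. Btg2, an antiproliferative gene, was at 5.64 ± 0.05, the stress phosphatase regulator Ppp1r15a at 3.65 ± 0.05 and Klf6 at 3.86 ± 0.10. Myc was at -2.06 ± 0.04, Klf10 at -2.81 ± 0.17 and the survival gene Ier3 at -2.19 ± 0.26. Egr3, Egr4, Nr4a1, Klf2, Klf4, Cyr61, Ctgf, Arc, Plk2 and Rhob were at 0 reads in the 0 and 200 nM libraries. The median turned to -0.08 with library size alone, with 7 higher and 6 lower.

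The ERK cascade with SRF and ELK factors had 13 higher and 4 lower of 22 tested (median 0.57), beside 40.5% and 39.5% of all genes. Library size alone gave 9 higher and 8 lower, beside 28.0% and 53.5% of all genes, and a median of 0.19, beside -0.36 over all genes. The ERK kinase gene Map2k2 stood at 401 ± 7 CPM at 200 nM and 190 ± 9 CPM at 0 nM, the ribosomal S6 kinase gene Rps6ka1 at 12.5 ± 2.5 CPM at 200 nM and 1.05 ± 0.51 CPM at 0 nM, and the SRF coactivator gene Mkl1 at 34.4 ± 2.0 CPM at 200 nM and 7.52 ± 0.64 CPM at 0 nM (SD, n = 2). Srf, which drives many immediate early promoters, fell to 2.73 ± 0.21 CPM at 200 nM, against 7.33 ± 0.47 CPM at 0 nM, Creb1 changed by -0.59 ± 0.08 and Map2k1 by -0.44 ± 0.06. The JNK and p38 cascade had 8 higher and 4 lower of 14 (median 0.28), beside 40.5% and 39.5% of all genes. With library size alone it had 2 higher and 6 lower, beside 28.0% and 53.5%, and the median turned to -0.10. The JNK kinase gene Map2k4 was at 0.99 ± 0.07, the JNK gene Mapk9 at 0.95 ± 0.07 and Map2k3 at 0.35 ± 0.04, the last at -0.03 with library size alone. Map3k4 was at -1.89 ± 0.09, Mapkapk2 at -0.79 ± 0.16 and Map3k5 at -0.92 ± 0.35.

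Among 7 tested phosphatases and feedback inhibitors of MAP kinases other than Dusp1, of 18 listed, 3 were higher and 3 lower with either scaling, beside the same shares of all genes. Dusp16, which acts on JNK, stood at 59.3 ± 0.1 CPM at 200 nM and 14.9 ± 0.6 CPM at 0 nM, Dusp8 at 7.28 ± 0.26 CPM at 200 nM and 0.309 ± 0.170 CPM at 0 nM, and Spry1 at 12.2 ± 1.8 CPM at 200 nM and 5.32 ± 0.15 CPM at 0 nM (SD, n = 2). Dusp7 fell to 0.131 ± 0.055 CPM at 200 nM, against 3.64 ± 0.15 CPM at 0 nM, and Spry4, an inhibitor of RAS signalling, to 0.696 ± 0.333 CPM at 200 nM, against 6.74 ± 0.53 CPM at 0 nM. Spred1 was at -0.57 ± 0.16. Dusp2, Dusp5, Dusp6 and Dusp10 had 0 reads in all 16 libraries. Adjusted p-values of the genes named from these lists ran from 2.69e-52 for Btg2 to 0.0150 for Map3k5 (edgeR quasi-likelihood, Benjamini-Hochberg).

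**Figure D5:**
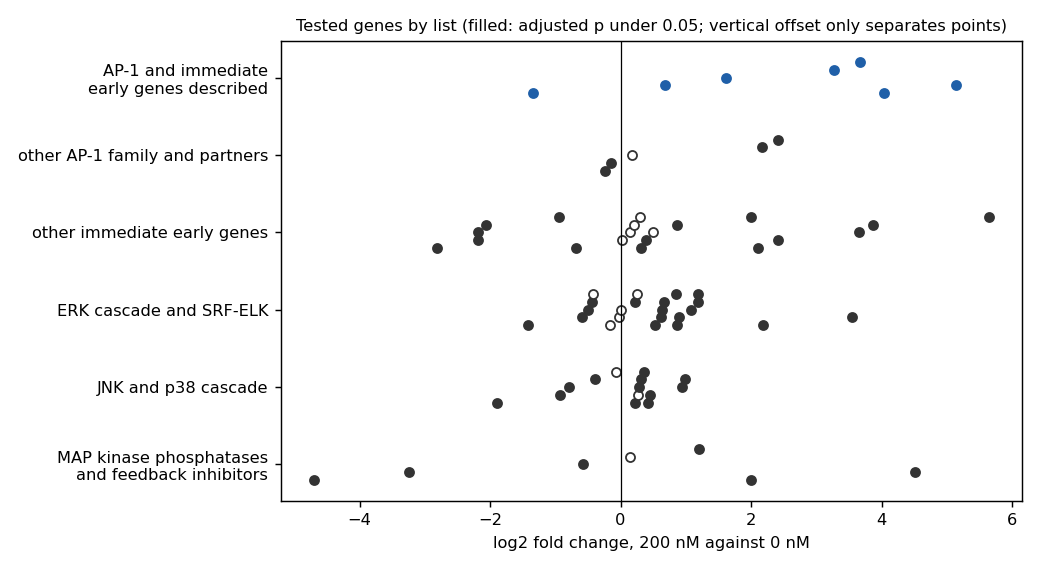
Log2 fold change at 200 nM against 0 nM (horizontal axis) of each tested gene, by list (rows), filled where the adjusted p was under 0.05, with vertical offsets only to separate points. The 7 genes described lie between -1.34 and 5.14, and every other list has called genes on both sides of 0.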

How the data were processed

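One table deposited by the authors held the counts of 16 libraries by gene symbol, whole numbers with unequal totals that were read as not normalised. Libraries were made by Smart-seq2, per the labels' protocols, which keeps no strand and uses no molecular identifiers, so counting intervals cover counting error only. The build was mm10 and the tools were STAR and bcl2fastq, per the submitters' processing notes. Tool versions, the counting program and the annotation are not stated there.

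Genes passing filterByExpr of edgeR 4.0.16 in R 4.3.3 (about 10 reads in at least 2 libraries, 15 in all) were scaled by TMM and fitted with a robust quasi-likelihood model with dose as a factor over all 16 libraries. P-values were adjusted by Benjamini-Hochberg over the 10080 genes tested and called under 0.05. The standard error is the size of the log2 fold change divided by the square root of F. The half-maximal dose, halfway from the 0 nM to the 200 nM level, was interpolated on monotone mean log2 CPM (prior count 2). Likeness was measured among genes with at least 5 CPM at their highest dose, unnamed gene models and mitochondrial genes left out. Sequences are RefSeq's, and positions and lengths are from GENCODE M21 (GRCm38). Alternatives were library size alone, RLE factors, DESeq2 1.42.0, no filter, a replicate block, Rn45s left out, the dose and 0 nM alone, and each library left out. Named genes were the 10 members, the 3 nearest genes to each of 5 members, and the 3 smallest adjusted p in each direction per list at 200 nM; list genes named for having no reads were chosen after their values were seen. Of the genes picked by this rule 1 is not reported here. The members and lists were chosen with earlier results of these data known.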

Additional observations from a re-analysis of the deposited data

How the results depend on the processing

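Directions and calls at 200 nM against 0 nM held for all 7 tested genes under every setting tried. With library size alone the count of members higher at 200 against 150 nM was 1, that at 25 against 12.5 nM was 0, and 1 was lower at 100 against 75 nM where none was with TMM. DESeq2 gave 3 members higher at 75 nM. Egr1 turned sign with library size alone at 12.5 nM (-0.0093) and 75 nM (-0.086) and at 12.5 nM with that dose and 0 nM alone in the fit (-0.0055), none of them called. The cause of these shifts was not tested, apart from the scaling itself.

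With each library left out in turn, members higher ran from 0 to 3 at 25 nM, 3 to 5 at 75 nM, 0 to 1 at 25 against 12.5 nM and 1 to 4 at 200 against 150 nM, and members lower from 0 to 1 at 50 nM and 1 to 2 at 50 against 25 nM. Log2 changes that crossed 0, none called when they did, were Dusp1 at 12.5 nM (-0.11 to 0.33), Egr1 at 12.5 nM (-0.026 to 0.041) and 75 nM (-0.0030 to 0.065), Fos at 12.5 nM (-3.92 to 1.92) and 25 nM (-0.96 to 1.26), Ier2 at 25 nM (-0.020 to 0.12), Jun at 12.5 nM (-0.15 to 0.52), and Jund at 25 nM (-0.18 to 1.72) and 50 nM (-0.30 to 2.68).

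Half-maximal doses over single-library series ran from 46.4 to 53.8 nM for Dusp1, 25.6 to 97.5 nM for Fos, 109 to 145 nM for Ier2, 65.4 to 70.4 nM for Jun, 87.8 to 104 nM for Junb and 34.8 to 146 nM for Jund. That of Jun was 66.2 nM with library size alone and 70.0 nM with a prior count of 5. That of Jund, within its wide spread, was 74.0 nM with library size alone and 71.6 nM with a prior count of 0.5, against 100.1 nM.

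Over all genes the counts moved by more than 1.5 times as follows. At 25 nM library size alone gave 174 higher and 225 lower, where TMM gave 302 and 103, and at 50 nM it gave 2330 lower against 1481. DESeq2 gave 12 lower at 12.5 nM and 49 at 25 nM, and the dose and 0 nM alone gave 46 lower at 12.5 nM, where the full fit gave 23. Leaving out a library gave 8 to 36 higher and 9 to 25 lower at 12.5 nM and 151 to 348 higher and 39 to 121 lower at 25 nM.

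Same-numbered libraries did not deviate together (correlation of replicate differences -0.058 to 0.096 over 28 pairs of doses), so the numbers were not taken as pairs. With the replicate block 6 members were higher and 1 lower at 200 nM, as without it, and no member count moved. Reads limit Jund, Fos, Fosb, Fosl2 and Atf3, with at most 24 in a library.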
